A study of Salmo salar with 16 samples.

Results

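Serine hydroxymethyltransferase 2, encoded by shmt2, and an S-adenosylmethionine (SAM) synthase of isoform type 2, encoded by LOC106580346, were followed in the spleen of Atlantic salmon on 4 diets. They are 2 genes out of 79140 named features in the count tables. They were picked by name after earlier results of these fish were known, and the values behind that choice are the levels of fish fed SBM and fish fed FM. Those levels, and every comparison that shares those fish, are therefore given as a description and without a test.

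RNA from 16 spleens, 4 per diet, was sequenced after 37 days of feeding in fresh water. ACJ and ICJ fish received soybean meal (40% of the diet) with the yeast Cyberlindnera jadinii (5%), which was autolysed for ACJ and inactivated by heat for ICJ. SBM fish received the same share of soybean meal without yeast, and FM fish received fishmeal as the control diet. All 3 soybean meal diets, and not FM, also contained added methionine and lysine. Fish came from duplicated tanks, but the labels do not name the tank of each fish, so differences between tanks and between diets cannot be told apart, and p-values measure the spread between these fish only.

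One-carbon metabolism moves single carbon units between amino acids, folate and methyl acceptors. SHMT2 is the mitochondrial enzyme that splits serine into glycine and a one-carbon unit carried by tetrahydrofolate, and SAM synthase joins methionine to the adenosine part of ATP to make SAM, the methyl donor of most methylation reactions. In mammals the type 2 SAM synthase is the form of most tissues outside the liver, and shmt2, the serine synthesis genes and mthfd2 are targets of the amino acid response led by ATF4. Roles below are those known from mammals.

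Libraries held 5013312 to 9075622 fragments assigned to named genes, so that 3 counts correspond to between 0.317 and 0.639 CPM (counts scaled to the size of the library), and 28929 genes passed the filter on low counts, both enzymes among them. CPM values are scaled by TMM, which corrects for a few dominant genes. The spleen libraries contained cd79b of B cells at 114 to 199 CPM, and 28 red blood cell (erythroid) markers, mostly hemoglobin genes, summed to 15568 to 77302 CPM. Markers of pancreas, an organ that lies close to the spleen, summed to between 7.39 CPM in fish SBM1 and 27583 CPM in fish FM1.

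The gene shmt2 lies on chromosome 12 (ICSASG_v2, 82136982 to 82169862, minus strand) with 2346 bases of exon. It had 63.1, 53.9, 59.8 and 77.3 CPM in ACJ fish, 57.6, 74.0, 77.4 and 74.5 CPM in ICJ fish, 51.3, 44.4, 48.1 and 55.0 CPM in SBM fish, and 89.4, 76.9, 109 and 96.0 CPM in FM fish. All 4 SBM fish were below all 4 FM fish and below all 4 ICJ fish, while ACJ fish overlapped each of the other diets. Of all genes tested, 4.15% had such a gap to FM and 1.51% had such a gap to ICJ. These levels came from 285 to 619 fragments per library, and in bulk tissue fewer cells that express a gene and less RNA per cell cannot be told apart.

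Mean shmt2 levels were 63.5 ± 9.93 CPM in ACJ, 70.9 ± 8.96 CPM in ICJ, 49.7 ± 4.53 CPM in SBM and 92.8 ± 13.3 CPM in FM (SD, n = 4 each). The order of the means, from low to high, was therefore SBM, ACJ, ICJ and FM, and each pair of neighbours in this order overlapped. The highest SBM fish (55.0 CPM) stood above the lowest ACJ fish (53.9 CPM), and the highest ICJ fish (77.4 CPM) stood just above the lowest FM fish (76.9 CPM).

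The SAM synthase gene LOC106580346 lies on chromosome 20 (ICSASG_v2, 26498292 to 26504196, plus strand) with 3480 bases of exon. It had 57.7, 58.9, 49.3 and 64.3 CPM in ACJ fish, 49.1, 50.7, 98.7 and 78.0 CPM in ICJ fish, 70.3, 44.9, 65.2 and 67.7 CPM in SBM fish, and 94.3, 90.4, 190.4 and 148 CPM in FM fish. Every ACJ and SBM fish was below every FM fish (3.56% and 4.15% of all genes tested had such a gap in ACJ and in SBM), and among ICJ fish only ICJ3 reached into the FM range. Fish FM3 and FM4 carried the highest levels of the 16, as they did for shmt2.

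Mean SAM synthase levels were 57.5 ± 6.22 CPM in ACJ, 69.1 ± 23.8 CPM in ICJ, 62.0 ± 11.6 CPM in SBM and 131 ± 47.6 CPM in FM (SD, n = 4 each). In contrast to shmt2, the lowest mean was in ACJ, and the 3 soybean meal diets overlapped one another. The coefficient of variation of this gene was 10.8% in ACJ, 34.4% in ICJ, 18.8% in SBM and 36.4% in FM, against 15.6% in ACJ, 12.6% in ICJ, 9.12% in SBM and 14.4% in FM for shmt2. The biological coefficient of variation fitted by edgeR was 0.263 for the SAM synthase gene, higher than that of 82.5% of the genes tested, and 0.136 for shmt2, higher than that of 42.5%.

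**Figure D1:**
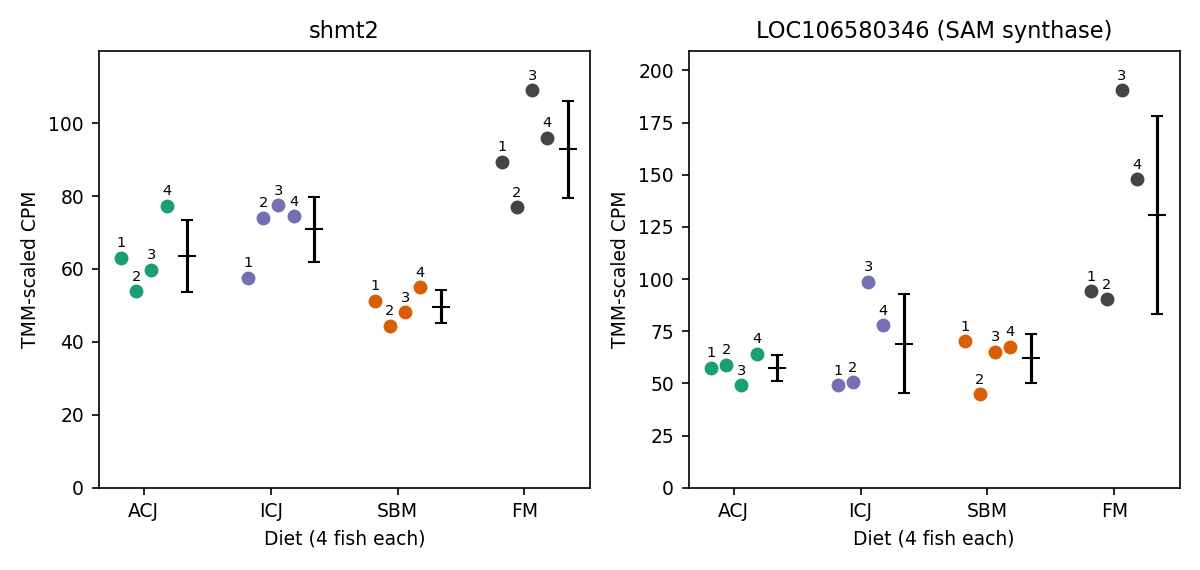
TMM-scaled CPM of shmt2 (left) and of the SAM synthase gene LOC106580346 (right) by diet. Each point is 1 fish with its replicate number, and black bars are the mean ± SD of 4 fish. SBM fish lie between 44.4 and 55.0 CPM for shmt2, below the FM fish, and FM3 (190.4 CPM) and FM4 (148 CPM) lie above the other 14 fish for the SAM synthase gene.

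Relative to FM, shmt2 showed a log2 fold change of −0.55 ± 0.12 in ACJ, −0.39 ± 0.12 in ICJ and −0.90 ± 0.12 in SBM (estimate ± SE). The SAM synthase gene showed −1.19 ± 0.27 in ACJ, −0.92 ± 0.27 in ICJ and −1.07 ± 0.27 in SBM. These comparisons share the 4 FM fish, so that the 2 genes' values are not independent between them. For shmt2 the estimate was farthest from 0 in SBM, and for the SAM synthase gene the 3 estimates lay within 1 SE of one another.

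Relative to SBM, shmt2 showed a log2 fold change of 0.35 ± 0.12 in ACJ and 0.51 ± 0.12 in ICJ, and the SAM synthase gene showed −0.11 ± 0.27 in ACJ and 0.16 ± 0.27 in ICJ. For shmt2 all 4 ICJ fish were above all 4 SBM fish, as were ICJ fish for 1.51% of all genes tested. Between ACJ and ICJ, the comparison that uses neither FM nor SBM fish, shmt2 had a log2 fold change of −0.16 (95% interval −0.42 to 0.10, adjusted p = 0.911) and the SAM synthase gene −0.27 (95% interval −0.86 to 0.32, adjusted p = 0.930) by the quasi-likelihood test of edgeR with Benjamini-Hochberg adjustment. A difference between the yeast preparations was therefore not detected for either gene. Both intervals include 0 and reach farther below it than above it, and that of the SAM synthase gene is the wider of the pair.

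As a background to the SBM and FM levels, 4.15% of all genes tested had every SBM fish below every FM fish, and 0.111% were called lower in SBM at an adjusted p under 0.05. Since that contrast chose the 2 genes, nothing is read from their place in it. Over all genes, 125 (0.432%) were called in either direction between SBM and FM, 68 (0.235%) between ACJ and FM, 3 (0.0104%) between ICJ and FM, and 0 in the comparisons among the soybean meal diets, where 1639 (ACJ and ICJ), 1995 (ACJ and SBM) and 1445 (ICJ and SBM) genes had an unadjusted p under 0.05 in edgeR and DESeq2 called 5, 5 and 6.

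Salmon carry further SAM synthase genes. These are metk1, LOC106563191 (mat2aa in the RefSeq table), both catalytic subunits by name, and mat2b, the regulatory subunit. Per kilobase of exon, the SAM synthase gene LOC106580346 had 16.5 CPM in ACJ, 19.9 CPM in ICJ, 17.8 CPM in SBM and 37.6 CPM in FM. On the same scale metk1 had 15.0 CPM in ACJ, 15.7 CPM in ICJ, 16.6 CPM in SBM and 14.7 CPM in FM. LOC106563191 had 7.90, 8.04, 7.82 and 8.35 CPM per kilobase in ACJ, ICJ, SBM and FM, and mat2b had 17.4, 18.4, 18.3 and 19.1 CPM per kilobase in the same order.

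By these values LOC106580346 had the highest mean of the catalytic genes on all 4 diets, close to that of metk1 on ACJ and SBM and farthest from it on FM. It was chosen with its SBM and FM levels known, and the other genes were not. Its contrast with them between those diets is therefore partly built in. The 3 other genes did not pass the test in any of the 6 comparisons. Between SBM and FM the log2 fold change was 0.18 (SE 0.12, adjusted p = 0.544) for metk1, −0.09 (SE 0.17, adjusted p = 0.868) for LOC106563191 and −0.06 (SE 0.09, adjusted p = 0.815) for mat2b by the same test. Fragments that matched several places were not counted, so levels of close gene copies rest on their unique parts.

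**Figure D2:**
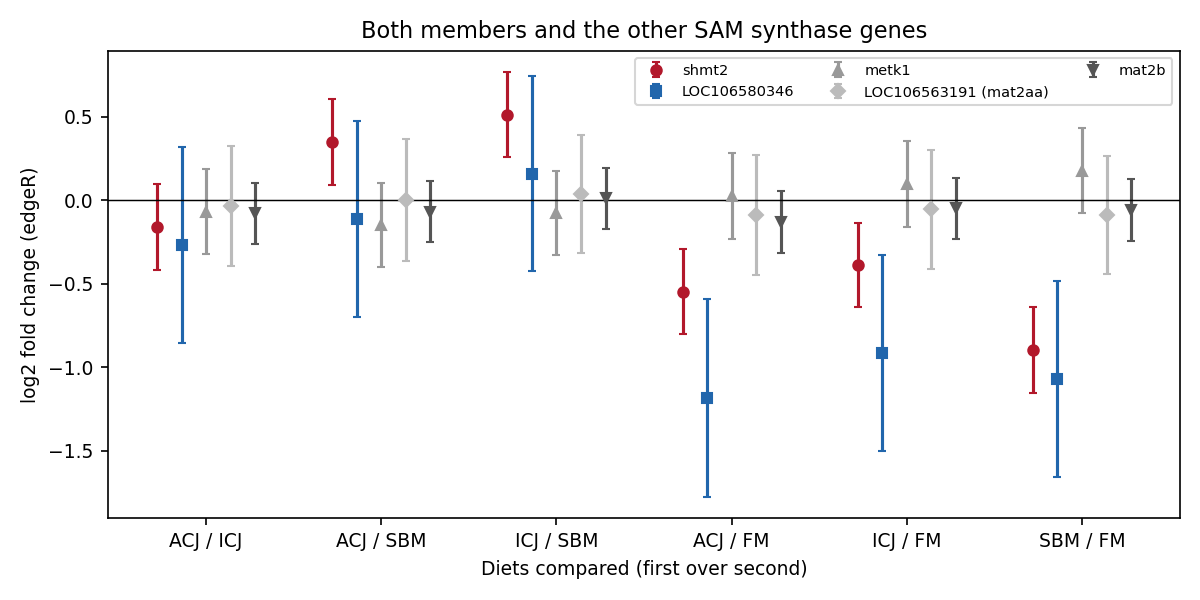
Log2 fold change of shmt2, LOC106580346 and the other SAM synthase genes in the 6 comparisons between diets, with the first named diet over the second. Bars are 95% intervals from all 16 fish. For shmt2 and LOC106580346, bars of comparisons with FM or SBM fish are a description and not a test. LOC106580346 reaches −1.07 between SBM and FM, the contrast it was chosen from, where metk1 is at 0.18 and mat2b at −0.06.

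Per kilobase, shmt2 had 27.1 CPM in ACJ, 30.2 CPM in ICJ, 21.2 CPM in SBM and 39.6 CPM in FM. The ratio of the SAM synthase gene to shmt2 on that scale had a median of 0.589 in ACJ fish, 0.640 in ICJ fish, 0.872 in SBM fish and 0.915 in FM fish. No second serine hydroxymethyltransferase gene was identified by name, and the cytosolic form was not analysed here.

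The 2 genes were also compared within diets, which does not use the difference between SBM and FM. After the diet mean was subtracted from each fish's log2 CPM, shmt2 and the SAM synthase gene varied together over the 16 fish with Pearson r = 0.71 (exact permutation of fish within diets, two-sided p = 0.00279, adjusted p = 0.0139 over 5 relations). Spearman rho was 0.76 (exact p = 0.000304, adjusted p = 0.00152). Without the 2 fish whose shmt2 deviations lay farthest from the median (ICJ1 and FM2), r was 0.60 (exact p = 0.00275, adjusted p = 0.0137). There the diet means of all 16 fish were kept. The remaining ICJ and FM fish are therefore not centred on their own means, and that shift enters r and its p. When 1 fish was left out at a time and the diet means were taken again, r ranged between 0.64 and 0.80. The adjusted exact p was 0.0651 without FM3, 0.0549 without ICJ4 and 0.0514 without SBM2.

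Among 26551 genes of sufficient level, 97 (0.365%) had a within-diet r with shmt2 at least as high as the SAM synthase gene, and 516 (1.94%) had such an r with the SAM synthase gene. The relation is therefore shared with many other genes. In the same fish the summed erythroid markers had a within-diet r of 0.28 with shmt2 (exact p = 0.365, adjusted p = 0.462, rho 0.54, adjusted p = 0.0854) and of 0.63 with the SAM synthase gene (exact p = 0.0595, adjusted p = 0.149, rho 0.78, adjusted p = 0.0509). Summed markers of proliferating cells had an r of −0.29 with shmt2 (exact p = 0.370, adjusted p = 0.462) and of 0.01 with the SAM synthase gene (exact p = 0.979, adjusted p = 0.979). None of these 4 relations passed the threshold.

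**Figure D3:**
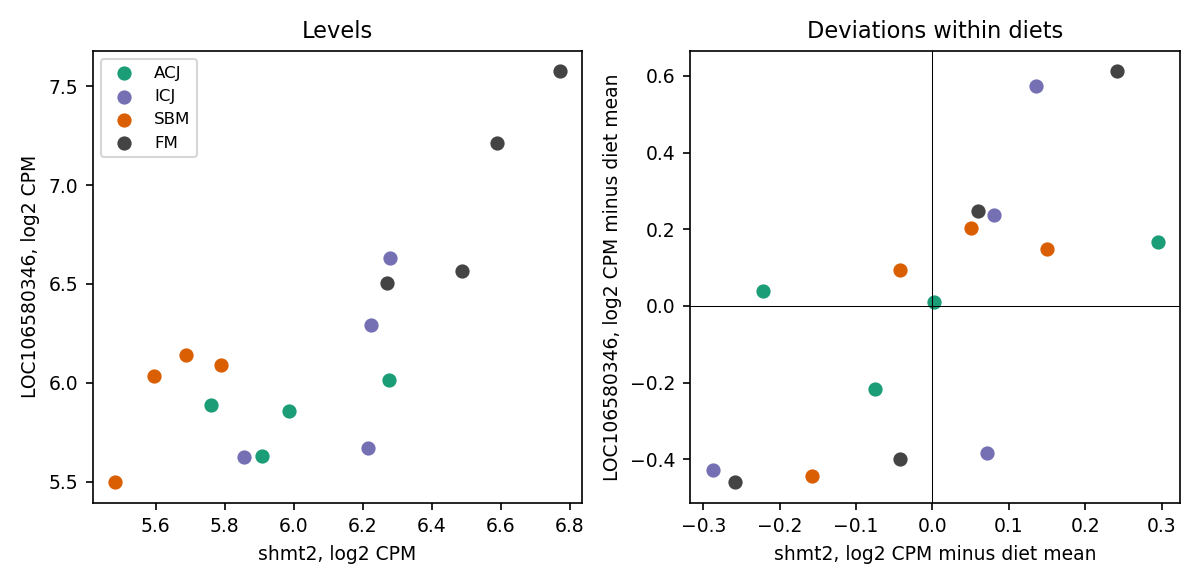
The SAM synthase gene LOC106580346 against shmt2 in 16 fish, as log2 CPM (left) and as deviations from the mean of each diet (right). Each point is 1 fish, coloured by diet. The deviations rise together with r = 0.71, and FM3 is the farthest point at the upper right of the left panel.

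By edgeR 0 of 26 erythroid, 14 proliferation, 10 pancreas and 2 thrombocyte markers tested were called in any of the 6 comparisons. Between SBM and FM, 24 erythroid, 8 proliferation, 0 pancreas and 2 thrombocyte markers had an unadjusted p under 0.05 in edgeR, as did 14.7% of all genes. DESeq2 called 17 erythroid and 2 thrombocyte markers there, beside 3.48% of all genes with an adjusted p. In the other 5 comparisons DESeq2 called 1 of these markers, a proliferation marker between ICJ and FM (1.21% of all genes with an adjusted p). The erythroid sum ranged over 37878 to 42543 CPM in ACJ, 15568 to 67431 CPM in ICJ, 16449 to 29211 CPM in SBM and 38365 to 77302 CPM in FM. All 26 erythroid markers tested had a negative SBM over FM log2 fold change (median −1.22), as did 14758 of all 28929 genes, and the sums of SBM and FM fish did not overlap. Of the 28 erythroid markers, 18 have their names only from lists the authors drew from these fish. They are not independent evidence of that direction or of the erythroid calls. The other 10 erythroid markers alone summed to 5755 to 10000 CPM in SBM and to 12770 to 24684 CPM in FM. All 14 proliferation markers had a positive SBM over FM log2 fold change (median 0.21), and their sums ran from 884 to 1042 CPM in SBM and from 703 to 939 CPM in FM. All 10 pancreas markers tested had a negative one (median −1.67), and their sums overlapped between SBM and FM. The thrombocyte markers itga2b (LOC106600877) and gp9 (LOC106571903) summed to 166 to 247 CPM in SBM and to 273 to 443 CPM in FM, again with no overlap. When 18 hemoglobin genes were removed before scaling, the SBM over FM log2 fold change stayed at −0.90 for shmt2 and −1.07 for the SAM synthase gene. The part of these cells in either gene's levels was not tested.

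The other genes of one-carbon metabolism were taken from a list of 33 genes, of which 32 were tested and 30 remained without shmt2 and the SAM synthase gene. By edgeR's test 0 of these 30 were called in any of the 6 comparisons. Between SBM and FM, 9 of the 30 had an unadjusted p under 0.05, as did 14.7% of all genes. Such a p was found for 2 of the 30 between ACJ and ICJ (5.67% of all genes), 9 between ACJ and SBM (6.9%), 2 between ICJ and SBM (4.99%), 6 between ACJ and FM (14.9%) and 4 between ICJ and FM (9.26%). DESeq2 called 0 of the 30 in those 5 comparisons, and between SBM and FM it called 5 (mtr, LOC106580352, LOC106609325, LOC106586691 and LOC106586211), where it called 734 of the 21072 genes it gave an adjusted p (3.48%). LOC106586211 was higher in SBM, and the others called were lower. Of the 30 genes, 5 have their names only from gene lists that the authors drew from these same fish, and those are not independent evidence of a direction. They make up 4 of the 9 between ACJ and SBM and 4 of the 9 between SBM and FM. Of the DESeq2 calls, LOC106609325, LOC106586691 and LOC106586211 are also such genes, while mtr and LOC106580352 are not. Among the 25 others, 18 had a negative SBM over FM log2 fold change with a median of −0.18, beside a median of −0.01 over all genes.

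In serine synthesis, psat1, the aminotransferase of that pathway, was the most abundant gene. It had 29.4, 25.5, 21.0 and 33.2 CPM in ACJ fish, 22.5, 26.2, 43.1 and 37.6 CPM in ICJ fish, 24.7, 20.2, 24.7 and 30.2 CPM in SBM fish, and 34.3, 28.5, 62.1 and 39.5 CPM in FM fish. The highest fish was again FM3, and SBM and FM fish overlapped (log2 fold change −0.71, SE 0.25, adjusted p = 0.197 in edgeR). Its within-diet r was 0.83 with shmt2 and 0.92 with the SAM synthase gene, given as a description. At least as high an r was found for 0.0377% and 0.0264% of genes. These were the highest values among the one-carbon and amino acid response genes. The lowest were −0.52 with shmt2 (mthfs, of folate interconversion) and −0.77 with the SAM synthase gene (dcam, of the polyamine branch). The last enzyme of the route, serb (phosphoserine phosphatase), had a log2 fold change of −0.59 (SE 0.26, adjusted p = 0.294 in edgeR). LOC106586211, named like the first enzyme PHGDH, had 0.47 (SE 0.11, adjusted p = 0.0677 in edgeR and 0.0211 in DESeq2) and thus an estimate of the opposite sign.

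In folate interconversion the most abundant gene was LOC106580352 (mthfd2 in the RefSeq table), the mitochondrial dehydrogenase and cyclohydrolase that acts on the carbon unit released by SHMT2. It had 292, 288, 272 and 319.6 CPM in ACJ fish, 214, 126, 331 and 455 CPM in ICJ fish, 189.8, 152, 149.7 and 214 CPM in SBM fish, and 290.5, 337, 553 and 530.3 CPM in FM fish. Every SBM fish was below every FM fish, as for 4.15% of all genes tested. ICJ2 had the lowest level of the 16, and ACJ1, ACJ4, ICJ3 and ICJ4 stood within the FM range. The erythroid marker sum was also lowest in ICJ2 (15568 CPM). FM3, FM4 and ICJ4 were the highest fish for this gene and for that sum (63977, 77302 and 67431 CPM). The part of red blood cells in the level of this gene was not tested. The SBM over FM log2 fold change was −1.28 (SE 0.33), with an adjusted p of 0.111 in edgeR and 0.00786 in DESeq2. LOC106609325, named like the formyltetrahydrofolate dehydrogenase ALDH1L2, had −1.35 (SE 0.33, adjusted p = 0.0897 in edgeR), while mthfd1, of the cytosol, and mthfd1l lay closer to 0.

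In nucleotide synthesis, glycine cleavage and the polyamine branch, log2 fold changes between SBM and FM were small. The most abundant genes were tyms, thymidylate synthase, at 0.15 (SE 0.11, adjusted p = 0.574), LOC106566775 (amt, the aminomethyltransferase of glycine cleavage) at 0.24 (SE 0.12, adjusted p = 0.348), and dcam, the SAM decarboxylase that feeds polyamine synthesis, at 0.00 (SE 0.13, adjusted p = 0.996), all by edgeR. SBM and FM fish overlapped for all 3 genes.

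In the methionine cycle, ahcy, which clears the product of SAM-dependent methylation, was the most abundant gene and had a log2 fold change of −0.21 (SE 0.12, adjusted p = 0.432). Methionine synthase, mtr, which regenerates methionine, had −0.60 (SE 0.15, adjusted p = 0.0903 in edgeR and 0.0200 in DESeq2). In transsulfuration, LOC106586691, named like cystathionine beta-synthase, had −0.60 (SE 0.15, adjusted p = 0.0912 in edgeR and 0.0192 in DESeq2). The gene bhmt, which remethylates homocysteine with betaine, ranged between 5.39 CPM in ICJ4 and 273 CPM in ACJ4. Pancreas markers summed to 361 CPM in ICJ4 and 25977 CPM in ACJ4, but their extremes were in SBM1 (7.39 CPM) and FM1 (27583 CPM). A relation of bhmt to pancreas markers was not tested.

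Of 11 amino acid response genes, 0 were called by edgeR in any comparison, with 5 at an unadjusted p under 0.05 between SBM and FM (14.7% of all genes), 3 between ACJ and FM (14.9%), 3 between ICJ and FM (9.26%) and 0 in the others. DESeq2 called 4 of them between SBM and FM (chac1, asns, LOC106570297 and LOC106588768; 3.48% of all genes with an adjusted p) and 2 between ACJ and FM (chac1 and LOC106588768; 2.43%). LOC106570297, named like asparagine synthetase, has its name only from a list the authors drew from these same fish. It is also 1 of the 5 at an unadjusted p under 0.05 between SBM and FM, and is not independent evidence of a direction. The gene chac1, which breaks down glutathione, had 69.4, 73.2, 56.5 and 65.1 CPM in ACJ fish, 54.0, 64.7, 108 and 85.5 CPM in ICJ fish, 86.4, 60.3, 60.0 and 82.5 CPM in SBM fish, and 107, 79.5, 181 and 140.2 CPM in FM fish. Its SBM over FM log2 fold change was −0.81 (SE 0.25, adjusted p = 0.161 in edgeR and 0.0240 in DESeq2). Asparagine synthetase, asns, had −0.62 (SE 0.17, adjusted p = 0.110 in edgeR and 0.0351 in DESeq2). LOC106588768 is sesn2, a leucine-sensing regulator of mTORC1, in the RefSeq table but sestrin-1-like in the study's supplementary names. That gene had −0.82 (SE 0.20, adjusted p = 0.0763 in edgeR and 0.0135 in DESeq2). By contrast atf4, trib3 and LOC106566144 (ddit3) had estimates between 0 and 0.1. Among all 11 genes, 5 had a positive SBM over FM log2 fold change and 6 a negative one. Without LOC106570297 these were 5 and 5, with a median of −0.09 beside −0.01 over all genes.

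**Figure D4:**
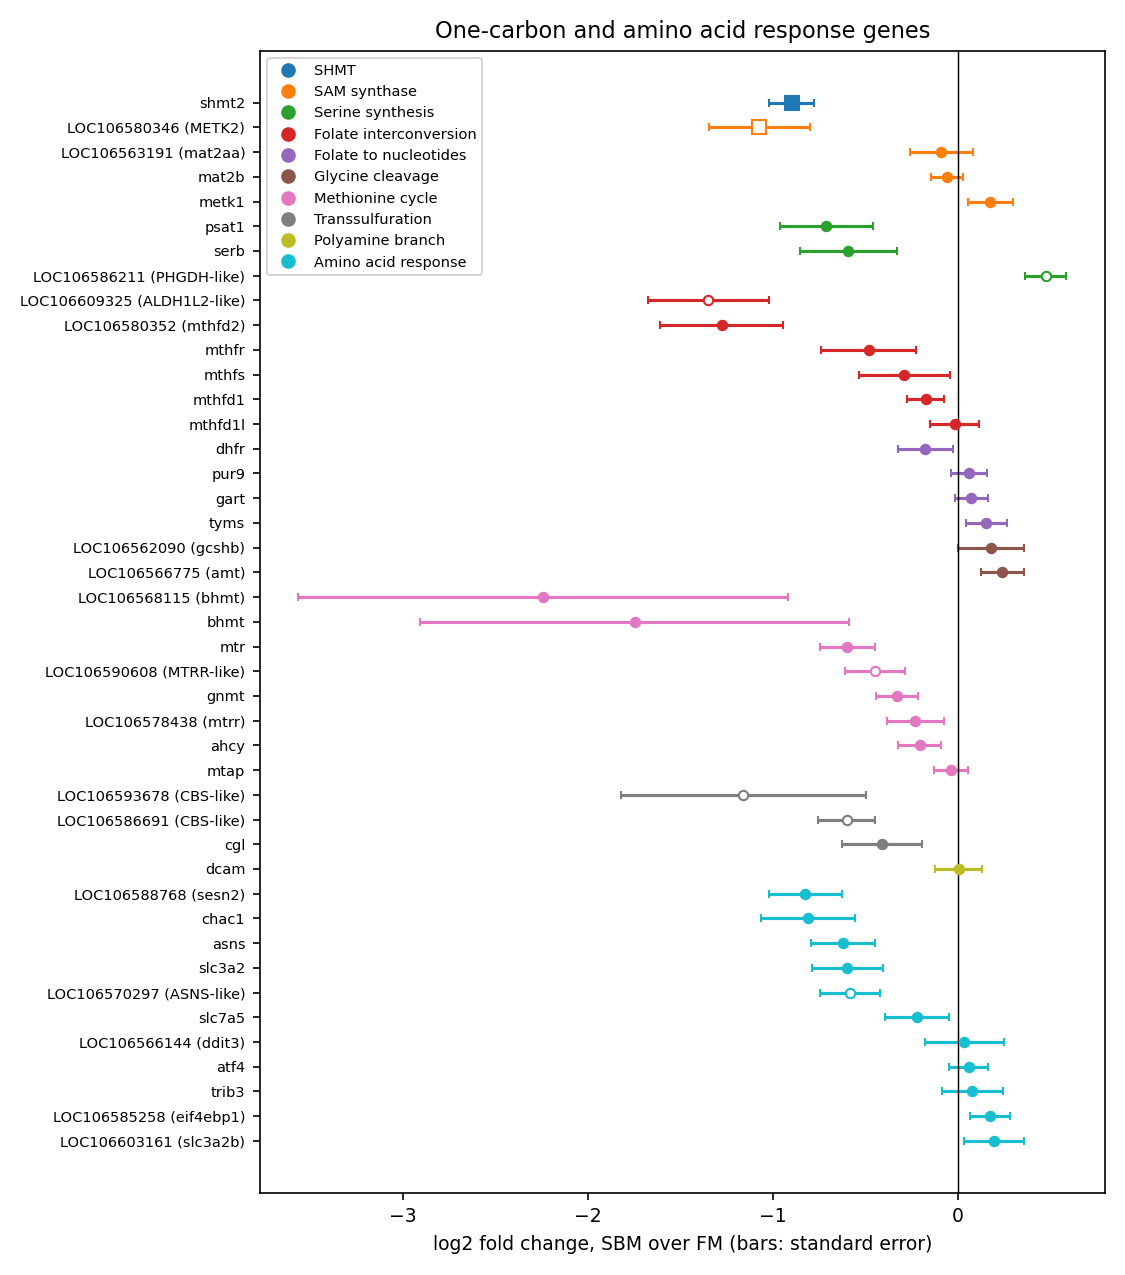
SBM over FM log2 fold change of one-carbon and amino acid response genes, by role. Points are estimates, bars are standard errors, squares mark shmt2 and LOC106580346, and open symbols mark genes named only from lists the authors drew from these fish. The folate gene mthfd2 (LOC106580352) is at −1.28, and genes of nucleotide synthesis lie close to 0.

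Over the 16 fish, with diet differences included, the genes most like shmt2 were LOC106610369 (r = 0.94), LOC106565058 (r = 0.90), LOC106609361, named like adrenomedullin 2 (r = 0.86), slc1a4, a transporter of neutral amino acids that include serine (r = 0.86), and LOC106574198, named like the cell death regulator BOK (r = 0.86). The SAM synthase gene ranked 58 among 26551 genes (r = 0.80), and shmt2 ranked 296 for the SAM synthase gene. Both were chosen from SBM and FM levels, so that their likeness here is partly built in. Within diets, r with shmt2 was 0.79 for LOC106610369, 0.75 for LOC106565058 and 0.80 for LOC106609361. It was 0.64 for slc1a4 and 0.60 for LOC106574198, beside 0.71 for the SAM synthase gene. Mean levels of slc1a4 were 40.9 ± 6.70 CPM in ACJ, 42.8 ± 16.1 CPM in ICJ, 29.8 ± 3.46 CPM in SBM and 81.4 ± 29.1 CPM in FM (SD, n = 4 each). The order of diets is that of shmt2, which a choice by r with diet differences included favours.

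The genes most like the SAM synthase gene were chac1 (r = 0.96), LOC106563865 (nadk2, the mitochondrial NAD kinase, r = 0.94), LOC106604711 (r = 0.94), LOC106602957, named like the cationic amino acid transporter 3 (r = 0.94), and narf (r = 0.93). Mean chac1 levels were 66.1 ± 7.18 CPM in ACJ, 78.1 ± 23.9 CPM in ICJ, 72.3 ± 14.1 CPM in SBM and 127 ± 43.7 CPM in FM (SD, n = 4 each), the order of the SAM synthase gene. These correlations describe 16 libraries that share diets and tanks, and have no p. Genes chosen by them tend to share the order of the diet means. Within diets, r with the SAM synthase gene was 0.91 for chac1, 0.92 for LOC106563865, 0.94 for LOC106604711, 0.92 for LOC106602957 and 0.90 for narf.

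The SAM synthase gene and mthfd2 are neighbours on chromosome 20, with 171558 bases and 5 other genes between them. All 5 were tested, their SBM over FM log2 fold changes ranged from −0.23 to 0.16, and their smallest adjusted p was 0.364 in edgeR. On the other side of the SAM synthase gene, LOC106580393 had −0.79 (SE 0.23, adjusted p = 0.123 in edgeR). LOC106580345 and LOC106580344, which lie nearer on that side, had −0.01 (SE 0.21) and −0.08 (SE 0.13). Close to shmt2 on chromosome 12, LOC106566122 had −1.21 (SE 0.34, adjusted p = 0.123 in edgeR) and r = 0.72 with shmt2 over the 16 fish. Its name is fam210b in the RefSeq table but protein FAM210A-like in the study's supplementary names. Tested genes nearer to shmt2 were LOC106566125 at −1.03 (SE 0.52, r = 0.32) and LOC106566119 at 0.26 (SE 0.80, r = −0.13). Farther away, LOC106566123 had 0.02 (SE 0.21, r = −0.03). An antisense gene that overlaps shmt2, LOC106566121, had 0 to 5 counts per library, and counting used the strand.

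**Figure D5:**
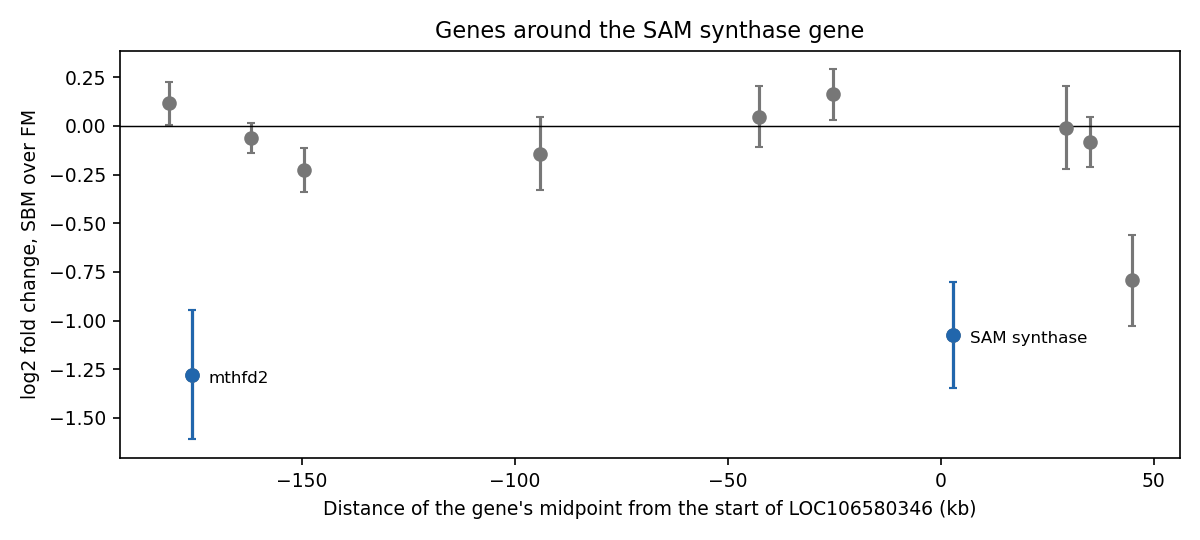
SBM over FM log2 fold change of tested genes around the SAM synthase gene LOC106580346, against the distance of each gene's midpoint from the start of that gene. Points are estimates and bars are standard errors. The SAM synthase gene (−1.07) and mthfd2 (−1.28) lie apart from the 5 genes between them, which range from −0.23 to 0.16.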

How the data were processed

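Spleen RNA of 16 fish (poly(A) libraries, stranded, paired reads) was trimmed, aligned to ICSASG_v2 with HISAT2 2.1.0 and counted per gene by the authors with featureCounts. The labels name version 1.4.6-p1 and the file headers 1.5.1. The deposited values are whole-number counts without normalization, by reverse strand, of uniquely assigned fragments. An unnamed row (0.205 to 0.475% of counts) was left out. Genes were filtered with filterByExpr, scaled by TMM and fitted over all 16 fish with edgeR 4.0.16 (glmQLFit, robust, glmQLFTest), after a check on simulated data, and called at a Benjamini-Hochberg adjusted p below 0.05. Alternatives were DESeq2 1.42.0, RLE scaling, no filter, a replicate block, fits of 8 fish, removal of hemoglobin genes and leaving out each fish.

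Members and lists were chosen with earlier results of these data known. The text names both enzymes, their paralogs, the most abundant gene of each other role (others named were chosen after their values were seen) and, for each enzyme, the 5 genes of mean log2 CPM at least 1 with the highest r. Lists were matched by file symbols, the RefSeq table (Ssal_v3.1) and the study's supplementary names. Chromosome numbers come from genes shared with that table. No sequences were analysed here. Library numbers in the headers differ from the fish numbers in the labels, and the labels were used.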

Additional observations from a re-analysis of the deposited data

Results flagged for a closer look

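The SAM synthase paralog metk1 had 23.7 CPM in fish ICJ4, against 21.5 to 21.8 CPM in the other 3 ICJ fish, so that the gap to the nearest fish took up 0.889 of the range of the group (above the 95% critical value of Dixon for 4 fish). This was 1 of 64 groups of fish examined, and chance gives such a gap in about 1 group of 20. Levels of shmt2 and of LOC106580346 gave no such fish in any diet.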

How the results depend on the processing

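All 168 alternative values of shmt2 and LOC106580346 in the 6 comparisons lay within 1 SD between replicates of the reported value. The SBM over FM log2 fold change ranged from −0.98 to −0.81 for shmt2 and from −1.21 to −0.84 for LOC106580346 when 1 fish was left out. The only change of sign was in ICJ over SBM for LOC106580346, at −0.07 without ICJ3. Counts of called genes moved more. DESeq2 called 5 (ACJ over ICJ), 5 (ACJ over SBM), 6 (ICJ over SBM), 472 (ACJ over FM), 99 (ICJ over FM) and 734 (SBM over FM), with 5 one-carbon and 4 amino acid response genes in SBM over FM and 2 amino acid response genes in ACJ over FM. Among those list genes, LOC106609325, LOC106586691, LOC106586211 and LOC106570297 have names only from lists the authors drew from these fish. LOC106586211 alone among the list genes called by DESeq2 had a positive log2 fold change. Fits of only the 8 fish compared called 2 (ACJ over ICJ), 8 (ACJ over SBM), 4 (ACJ over FM), 0 (ICJ over FM) and 38 (SBM over FM). No expression filter gave 127 (ACJ over FM) and 5 (ICJ over FM). The replicate block gave 39 (ACJ over FM), 0 (ICJ over FM) and 1 amino acid response gene (SBM over FM). Fish with the same number are different animals on different diets, and the labels do not say that they are paired. Their deviations had a mean correlation of −0.0155 over 24 pairs (8 above 0.1, the highest 0.297). With the tanks unknown, this cannot show whether such fish shared a tank or batch. Leaving out 1 fish gave 0 to 1 (ACJ over ICJ), 0 to 0 (ACJ over SBM), 0 to 1 (ICJ over SBM), 2 to 550 (ACJ over FM), 0 to 37 (ICJ over FM) and 5 to 670 (SBM over FM) called genes, with 550 and 670 both without FM1, 2 without ACJ1 or ACJ2, and 5 without FM4 or SBM2. It gave 0 to 1 one-carbon genes in SBM over FM (LOC106586691 without FM1, mtr without SBM3), and 0 to 2 (SBM over FM) and 0 to 1 (ACJ over FM) amino acid response genes (LOC106588768 in both without FM1 and in SBM over FM without FM2, LOC106570297 in SBM over FM without FM1). The within-diet correlation of both enzymes ranged from 0.64 to 0.80, and that of LOC106580346 with proliferation markers was −0.094 as Spearman rho. The cause was not tested. With 285 or more fragments per library, counting error of both enzymes was at most 5.92%, below the spread between fish.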
